A study of Homo sapiens with 12 samples.

Results

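The FOX and SOX genes encode 2 families of transcription factors, and their promoters were examined for trimethylated lysine 4 of histone H3 (H3K4me3) in BON1, a cell line from a human pancreatic neuroendocrine tumor. Members were the protein-coding genes whose symbol was FOX, a letter and digits or SOX and digits in GENCODE on GRCh37, with 1 symbol of that form left out, and they were chosen by name and not by any measured value. The rule gave 63 of 20136 protein-coding genes, 44 FOX and 19 SOX. CUT&RUN, in which a nuclease tethered by an antibody releases DNA fragments from bound chromatin, had been done on 2 BON1 derivatives. BON1/TGL/HA-Bcl-xL overexpressed Bcl-xL, an anti-apoptotic BCL2 family protein, with an HA epitope tag, and BON1/TGL/pQ was the control; both carried TGL and grew in medium with serum and puromycin. The series title writes the mark as H3K3me3, whereas the sample labels name an H3K4me3 antibody, and the labels were followed. Each derivative had an H3K4me3 antibody group and a rabbit anti-mouse IgG group of 3 replicates. The H3K4me3 library of HA-Bcl-xL replicate 1 was not analysed here, which left 3 control and 2 HA-Bcl-xL H3K4me3 libraries and 6 IgG libraries. Both derivatives come from the same line, and the labels do not say whether a derivative was 1 clone or whether replicates were separate cultures, so p-values measure only the spread between these samples.

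Forkhead (FOX) factors bind DNA through a winged-helix domain, and SOX factors through an HMG box that bends DNA. FOXA proteins can open compact chromatin and pattern gut endoderm, liver and pancreas, SOX9 maintains pancreatic progenitor and duct cells, and other members specify neural crest, gonad, cartilage or blood vessels. H3K4me3 is laid down around the start sites of active and poised genes, and CpG-rich promoters of developmental genes can carry it where the gene is little expressed. A peak is a presence call over a short interval and was read here as a mark on DNA, not as a level of RNA.

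The H3K4me3 lists held 10247 to 17711 peaks and the IgG lists 244 to 2113. The lists give no read totals, so depth was known only through list length and through the fragment number at each summit. The 94 member peaks within 1 kb of a 5′ end had 5 to 45 fragments at the summit, with a median of 11, and were 73 to 332 bp wide, with a median of 116 bp. A promoter without a peak was therefore not detected at this depth, which is not the same as unmarked. The pancreatic neuroendocrine label was checked at marker promoters. Peaks within 1 kb lay in at least 1 H3K4me3 library at 6 of 8 neuroendocrine markers (CHGA, CHGB, PCSK1, SCG2, SYP and TPH1) and in all 5 at CHGB and SCG2, while ENO2 and INSM1 had none in that window and all 8 had a peak within 2.5 kb. Epithelial markers were marked at 5 of 5 promoters (CDH1, KRT8 and KRT18 in all 5 libraries), mesenchymal markers at 1 of 5 (FN1, in 1 library) and immune markers at 0 of 4. Within 2.5 kb at least 1 library had a peak at 4 of 5 mesenchymal markers, with 0 of 5 in all 5 libraries, and at 0 of 4 immune markers. Over all genes the share with a peak in at least 1 library was 48.2% within 1 kb and 53.5% within 2.5 kb.

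The DNA that recurrent peaks shared shows how differently these promoters were marked. Each run below is the longest stretch outside annotated untranslated regions that lay under peaks of several libraries, read 5′ to 3′ in the direction of the gene from GRCh37, with CpG dinucleotides in capitals. Positions count from the most 5′ annotated end, which is 0, with negative values upstream. The first 3 runs ended within 50 bp upstream of the gene's start, at the core promoter. The FOXD1 run was under peaks of all 5 libraries, held 5 CpG and was intergenic. FOXO4 (at least 4 libraries, 6 CpG) was intergenic too, and FOXD3 (at least 4 libraries, 10 CpG) lay in an exon of the antisense RNA FOXD3-AS1.
FOXD1 (chr5:72744603-72744695, minus strand): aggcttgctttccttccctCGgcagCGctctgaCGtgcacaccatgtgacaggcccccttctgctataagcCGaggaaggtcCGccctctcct
FOXO4 (chrX:70315631-70315700, plus strand): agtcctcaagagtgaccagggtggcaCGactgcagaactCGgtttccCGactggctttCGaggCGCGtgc
FOXD3 (chr1:63788129-63788204, plus strand): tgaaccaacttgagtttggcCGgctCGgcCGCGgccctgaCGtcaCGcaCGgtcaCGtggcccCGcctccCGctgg

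The other runs lay downstream of the 5′ end or further upstream. FOXA1 (5 libraries) had a 34 bp run 17 to 50 bp downstream, with 1 CpG and a TATAAA match in an exon of its most 5′ transcript, which has no defined coding sequence, and inside TTC6, which is read from the opposite strand. FOXA3 (at least 4 libraries, 1 CpG) had its run 630 to 571 bp upstream, between genes. FOXL2 (5 libraries, 11 CpG) had it 733 to 823 bp downstream, within its coding sequence. FOXM1 (at least 4 libraries, 1 CpG) and SOX30 (at least 4 libraries, 4 CpG) had theirs in an intron, 578 to 651 bp and 438 to 505 bp downstream, that of FOXM1 also lying inside RHNO1.
FOXA1 (chr14:38065214-38065247, minus strand): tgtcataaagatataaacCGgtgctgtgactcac
FOXA3 (chr19:46366617-46366676, plus strand): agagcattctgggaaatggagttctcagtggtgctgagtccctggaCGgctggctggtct
FOXL2 (chr3:138665156-138665246, minus strand): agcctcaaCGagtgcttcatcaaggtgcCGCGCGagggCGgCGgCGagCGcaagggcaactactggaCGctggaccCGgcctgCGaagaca
FOXM1 (chr12:2985689-2985762, minus strand): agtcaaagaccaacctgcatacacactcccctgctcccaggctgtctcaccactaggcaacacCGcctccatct
SOX30 (chr5:157097983-157098050, minus strand): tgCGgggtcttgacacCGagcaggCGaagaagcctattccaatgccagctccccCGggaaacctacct

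Few FOX and SOX promoters carried H3K4me3 in every library. At 8 of 63 genes (12.7%) all 5 libraries had a peak less than 1 kb from the 5′ end, against 21.3% of all protein-coding genes. Those 8 were FOXA1, FOXA3, FOXD1, FOXL2, FOXM1, FOXN3, SOX9 and SOX30. With peaks of a -log10 q of at least 5 alone, 3 of them kept the call (FOXA3, FOXD1 and SOX30), against 15.3% of all genes, and FOXA1, FOXL2, FOXM1, FOXN3 and SOX9 lost it. At least 1 library had a peak at 24 members (38.1%), against 48.2% of all genes, and 39 members (61.9%) had none. Under that stricter limit 20 members were marked in at least 1 library, against 42.4% of all genes. With each list limited to its 10247 strongest peaks 6 were in all 5 libraries, against 17.9%, and 19 in at least 1, against 42.6%. SOX genes were at 5 of 19 in at least 1 library and FOX genes at 19 of 44. In each library the share of members with a peak was below that of all genes: 27.0, 22.2 and 15.9% against 40.4, 32.4 and 28.2% in control replicates 1, 2 and 3, and 30.2% against 38.1% in HA-Bcl-xL replicate 2 and 22.2% against 36.5% in replicate 3. No member had a peak within 1 kb or 2.5 kb in any of the 6 IgG libraries, where 0.785% and 1.47% of all genes had one.

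**Figure D1:**
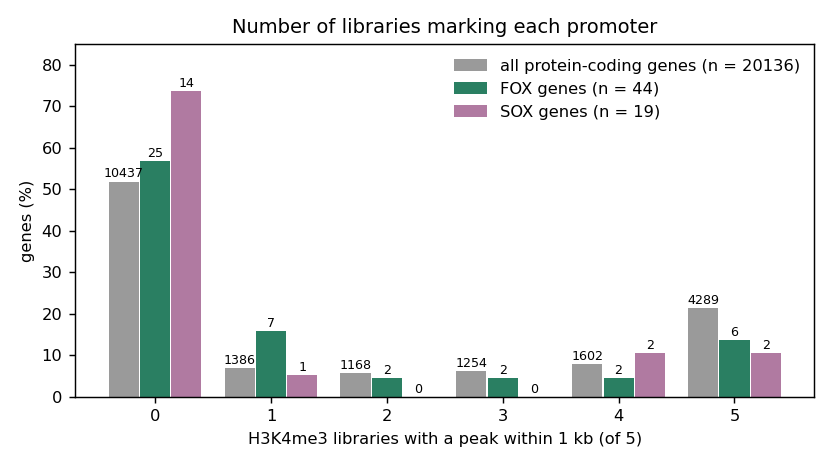
Share of genes (%, vertical axis) by the number of H3K4me3 libraries, 0 to 5, with a peak within 1 kb of the most 5′ end. Sets are the 44 FOX genes, the 19 SOX genes and all 20136 protein-coding genes. Both families are higher than all genes at 0 libraries (FOX 56.8% and SOX 73.7%, against 51.8%). Both are lower at 5 (6 of 44 FOX and 2 of 19 SOX genes, against 21.3%). For the 63 members together the shares are 61.9% at 0 and 12.7% at 5.

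**Figure D2:**
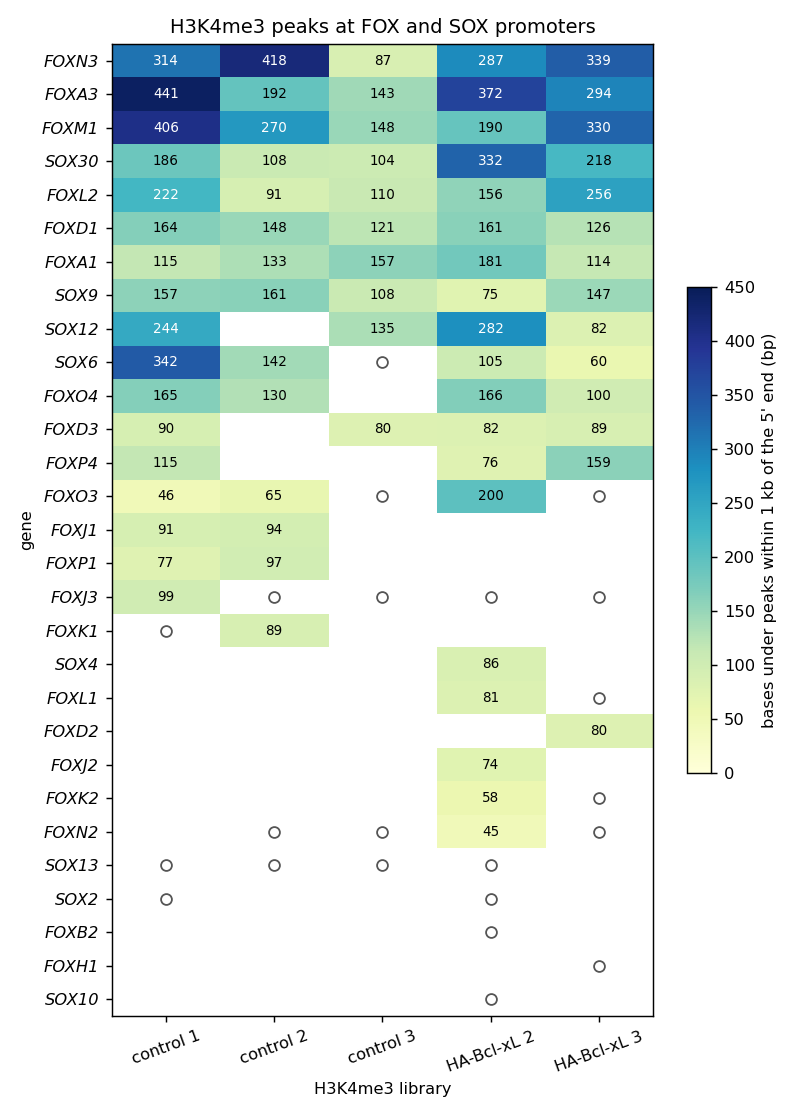
Bases under H3K4me3 peaks within 1 kb of the 5′ end (bp, colour) for the 29 FOX and SOX genes with a peak within 2.5 kb (rows) in the 5 libraries (columns); open circles mark a peak between 1 and 2.5 kb only. The 8 genes marked in all 5 libraries within 1 kb are at the top, and the 5 marked beyond 1 kb only are at the bottom.

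Endoderm and pancreas factors were marked in all 5 libraries at 3 of 5 genes, FOXA1, FOXA3 and SOX9, where 21.3% of all genes were. With each list limited to its 10247 strongest peaks only FOXA3 of these was in all 5 (17.9% of all genes), and at a -log10 q of at least 5 likewise only FOXA3 (15.3%). FOXA1, a forkhead pioneer factor of endoderm, had 115, 133 and 157 bp under peaks in control replicates 1, 2 and 3 and 181 and 114 bp in HA-Bcl-xL replicates 2 and 3. FOXA3, a forkhead factor of liver and gut, had 441, 192 and 143 bp in the controls and 372 and 294 bp in HA-Bcl-xL. SOX9 had 157, 161 and 108 bp in the controls and 75 and 147 bp in HA-Bcl-xL. The ranges of the 2 lines overlapped for all 3 genes. The FOXA1 peaks sat just inside the annotated 5′ end, between 36 bp upstream and 192 bp downstream, with 10 to 15 fragments at the summit. Control replicates 1 and 2 and HA-Bcl-xL replicate 3 had a second FOXA1 peak 1645 to 1788 bp downstream, with 14 to 16 fragments. The coding FOXA1 transcript starts 810 bp downstream of the most 5′ end, between these peaks. TTC6 starts 430 bp downstream on the opposite strand, so the FOXA1 peaks cannot be assigned to either gene from their position. At FOXA3 the peaks lay on both sides of the 5′ end, from 787 to 538 bp upstream in 4 libraries and from 705 to 1011 bp downstream in all 5. Another lay 91 to 213 bp downstream in HA-Bcl-xL replicate 2. The upstream side was next to the 5′ end of SYMPK, which encodes an mRNA 3′-end processing scaffold and starts 795 bp upstream on the opposite strand. Those upstream peaks cannot be assigned to either gene from their position.

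The SOX9 peaks covered the core promoter in every library, from 127 bp upstream at most to 36 bp downstream at most. Their summits held 12, 15 and 10 fragments in the controls, and 9 and 21 in HA-Bcl-xL. Their percentile by strength within each list, where 100 is the strongest peak, was 27.6, 68.0 and 33.1 in the controls and 16.1 and 87.5 in HA-Bcl-xL, so a mark found in every library was of middle or low strength in most. SOX4, a SoxC factor that acts in islet development among other tissues, had a peak in HA-Bcl-xL replicate 2 alone, of 86 bp. SOX17, a factor of early endoderm and vessels, had none within 1 kb or 2.5 kb, and the nearest peak of any library was 213132 bp away.

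Among 15 neural and neural crest factors, 1 was marked in all 5 libraries and 2 in at least 1, where 21.3% and 48.2% of all genes were. FOXD1, a forkhead factor of kidney stroma and forebrain, had 164, 148 and 121 bp under peaks in control replicates 1, 2 and 3 and 161 and 126 bp in HA-Bcl-xL replicates 2 and 3. Its summits held 45, 30 and 28 fragments in the controls and 41 and 37 in HA-Bcl-xL, the most of any member peak within 1 kb in each library, and ranked at percentiles 97.9 to 99.4 of their lists. The 5 intervals nearly coincided, starting 130, 115, 93, 120 and 93 bp upstream and ending 33, 32, 27, 40 and 32 bp downstream of the 5′ end, which is at chr5 position 72744602 on the minus strand. FOXD3, a neural crest and pluripotency factor, was marked in 4 libraries with 90, 0 and 80 bp in the controls and 82 and 89 bp in HA-Bcl-xL, from 5 to 7 fragments at each summit. All 4 FOXD3 peaks lay between 115 and 24 bp upstream.

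The remaining neural factors were largely without peaks. FOXB1, FOXN4, FOXP2, SOX1, SOX3, SOX8, SOX11, SOX14 and SOX21 had none within 2.5 kb, and the nearest peak was 305834 bp from SOX3, the longest such distance of any member. FOXB2 and SOX10 each had a peak between 1 and 2.5 kb in HA-Bcl-xL replicate 2 alone, of 85 bp and 76 bp. SOX2, a pluripotency and neural progenitor factor, had peaks only beyond 1 kb downstream, 324 bp in control replicate 1 and 140 bp in HA-Bcl-xL replicate 2 within the 2.5 kb window. By subfamily, none of the 3 SoxB1 genes (SOX1, SOX2 and SOX3) and none of the 2 SoxB2 genes (SOX14 and SOX21) had a peak within 1 kb.

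Gonad and germ line factors were marked in all 5 libraries at 2 of 3 genes, against 21.3% of all genes, in a list too short for a share to be read. FOXL2, which maintains ovarian granulosa cell identity, had 222, 91 and 110 bp under peaks in control replicates 1, 2 and 3 and 156 and 256 bp in HA-Bcl-xL replicates 2 and 3. The recurrent FOXL2 peak lay 656 to 841 bp downstream, in the coding sequence, with 8 to 17 fragments, and a second peak near the 5′ end appeared in control replicate 1 and HA-Bcl-xL replicate 3 only. SOX30, a factor of spermatid formation, had 186, 108 and 104 bp in the controls and 332 and 218 bp in HA-Bcl-xL. Its peaks lay 315 to 647 bp downstream and held 10, 9 and 9 fragments at the summit in the controls and 15 and 18 in HA-Bcl-xL, so both HA-Bcl-xL libraries were above all 3 controls by width and by fragments. FOXR1 had no peak. Both marked genes start within 100 bp of a protein-coding gene on the opposite strand, FOXL2NB 80 bp upstream of FOXL2 and C5orf52 53 bp upstream of SOX30; these peaks cannot be assigned to either gene from their position.

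Mesenchyme, vessel and cartilage factors had 0 of 10 genes in all 5 libraries (21.3% of all genes) and 2 in at least 1 (48.2%). SOX6, a SoxD factor of cartilage and muscle, had 342, 142 and 0 bp in the controls and 105 and 60 bp in HA-Bcl-xL within 1 kb, and was in all 5 libraries within 2.5 kb. FOXL1, a factor of gut mesenchyme, had a peak in HA-Bcl-xL replicate 2 from 127 to 47 bp upstream and, beyond 1 kb, in HA-Bcl-xL replicate 3 at 2319 to 2410 bp downstream. SOX5, SOX7, SOX18, FOXC1, FOXC2, FOXF1, FOXF2 and FOXS1 had none within 2.5 kb. The 3 SoxF genes of endothelium (SOX7, SOX17 and SOX18) were therefore all without a peak. The same held for the 3 forkhead genes clustered on chromosome 6, FOXQ1, FOXF2 and FOXC1, whose nearest peaks of any library were 298855, 224192 and 3853 bp away, whereas of the cluster of FOXF1, FOXC2 and FOXL1 on chromosome 16 only FOXL1 had one.

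Specialised epithelial and cilia factors were marked in at least 1 library at 1 of 8 genes, against 48.2% of all genes. FOXJ1, which drives motile cilia, had 91, 94 and 0 bp in control replicates 1, 2 and 3 and 0 bp in both HA-Bcl-xL libraries. The FOXJ1 peaks held 12 and 11 fragments and lay 137 to 30 bp upstream. FOXE1, FOXE3, FOXI1, FOXI2, FOXI3, FOXN1 and FOXQ1 had none within 2.5 kb, and neither did FOXP3, the factor of regulatory T cells. FOXD2 was marked in HA-Bcl-xL replicate 3 alone (80 bp), and FOXD4, FOXL3, FOXR2 and SOX15 had no peak; FOXD4 has near-identical copies, so its absent peak is uncertain.

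Broadly expressed cell cycle and signalling factors were marked in at least 1 library at 12 of 16 genes, against 12 of the 47 other members, and in all 5 libraries at 2 of 16, against 6 of 47. The shares over all genes were 48.2% and 21.3%, and the difference between the lists was not tested. FOXM1, which drives mitotic genes, had 406, 270 and 148 bp in control replicates 1, 2 and 3 and 190 and 330 bp in HA-Bcl-xL replicates 2 and 3. A FOXM1 peak lay over the 5′ end in every library but control replicate 3, and another between 482 and 741 bp downstream in all 5. TULP3 starts 49 bp upstream of FOXM1 on the opposite strand and RHNO1 starts 916 bp downstream. FOXN3, a forkhead repressor in the checkpoint response, had 314, 418 and 87 bp in the controls and 287 and 339 bp in HA-Bcl-xL, lowest in control replicate 3, which had the shortest list. Its peaks lay between 158 and 806 bp downstream, apart from 1 upstream peak in HA-Bcl-xL replicate 3.

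The other broad factors were marked in some libraries. FOXO4, a FOXO factor downstream of insulin signalling, had 165, 130 and 0 bp in the controls and 166 and 100 bp in HA-Bcl-xL, with each peak over the 5′ end. SOX12, a SoxC factor, had 244, 0 and 135 bp in the controls and 282 and 82 bp in HA-Bcl-xL, all of it upstream. FOXP4 was in control replicate 1 and both HA-Bcl-xL libraries (115, 76 and 159 bp), and FOXP1 in control replicates 1 and 2 (77 and 97 bp). FOXO3, which has a near-identical copy in FOXO3B, had 46, 65 and 0 bp in the controls and 200 and 0 bp in HA-Bcl-xL within 1 kb, and peaks that reached 1180 bp upstream placed it in all 5 libraries within 2.5 kb. FOXJ3 likewise went from 1 library, control replicate 1, to all 5 through peaks 1286 to 2041 bp downstream. Only 1 library each marked FOXK1 (control replicate 2) and FOXJ2, FOXK2 and FOXN2 (HA-Bcl-xL replicate 2) within 1 kb. FOXN2 reached 4 libraries within 2.5 kb, where FOXK1 added control replicate 1. SOX13, a SoxD factor, had peaks 1246 to 1620 bp downstream in 4 libraries, of 294, 213 and 182 bp in the controls and 99 bp in HA-Bcl-xL replicate 2, and FOXH1, a SMAD partner, had 73 bp upstream in HA-Bcl-xL replicate 3, beside PPP1R16A. FOXO1 and FOXO6 had none within 2.5 kb, and the nearest peak of any library was 103924 bp from FOXO1 and 89774 bp from FOXO6.

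Within 2.5 kb, 11 members (17.5%) were in all 5 libraries against 25.6% of all genes, and 29 (46.0%) in at least 1 against 53.5%. The number of libraries changed for 12 members between the windows. When the 5′ end of any annotated transcript was used with 1 kb, 10 members were in all 5 libraries, against 26.5% of all genes, and 27 in at least 1, against 56.6%. Of the 34 members with no peak within 2.5 kb, 4 had a peak of some library within 5 kb and 21 within 100 kb, and the median distance to the nearest was 67.3 kb.

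Peak position differed among the members. A peak touched the interval from 150 bp upstream to 50 bp downstream at 13 members in at least 1 library, and at 8 of them in every library that marked the gene: FOXA1, FOXD1, FOXD3, FOXJ1, FOXL1, FOXO4, SOX4 and SOX9. The strongest peak's summit was in that interval at 7 of 17 marked members in control replicate 1 (41.2%), 6 of 14 in replicate 2 (42.9%) and 3 of 10 in replicate 3 (30.0%), and at 8 of 19 in HA-Bcl-xL replicate 2 (42.1%) and 5 of 14 in replicate 3 (35.7%). Over all marked genes the share was 31.0 to 33.3%, so members were above it in 4 libraries and below it in control replicate 3.

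**Figure D3:**
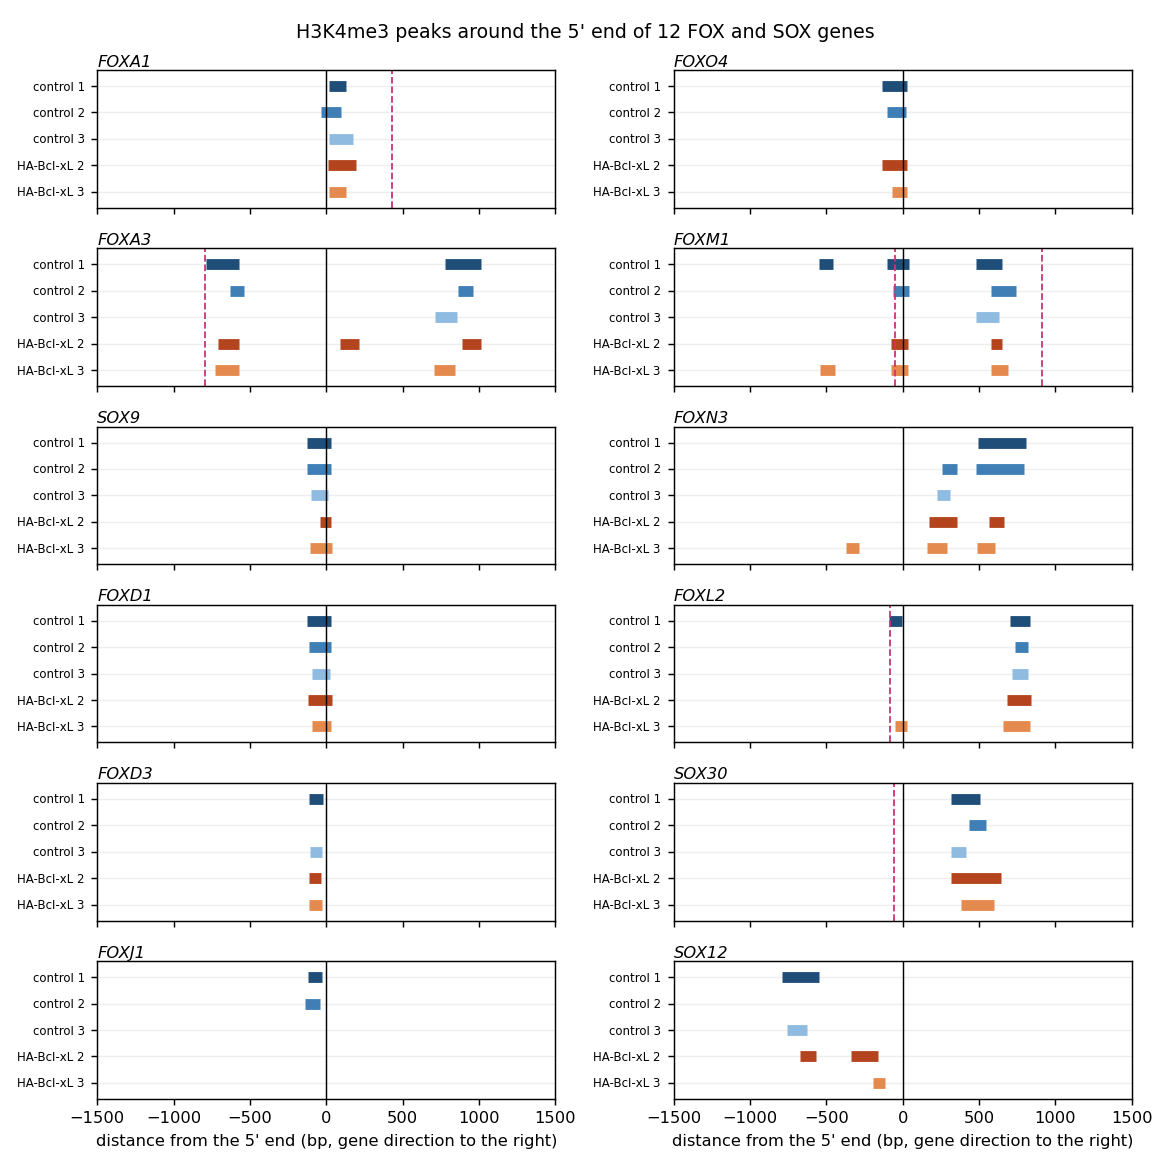
H3K4me3 peaks (bars) in the 5 libraries (rows of each panel) by distance from the most 5′ end (bp, gene direction to the right) at 12 FOX and SOX genes. FOXD1 and SOX9 peaks cover the 5′ end in every library, FOXA3 peaks lie on both sides of it, and SOX30 peaks lie 315 to 647 bp downstream.

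A protein-coding neighbour moved with recurrent marking. Of the 7 members with another protein-coding 5′ end within 1 kb, all on the opposite strand, 5 (71.4%) were marked in all 5 libraries (FOXA1, FOXA3, FOXL2, FOXM1 and SOX30), and SOX8 (beside LMF1) and SOX18 (beside TCEA2) had no peak. Of the 56 members without one, 3 (5.36%) were: FOXD1, FOXN3 and SOX9. Over all genes the shares were 46.2% of 3518 genes with such a neighbour and 16.0% of 16618 without. The neighbour's part in the result was not tested.

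FOX and SOX promoters were richer in GC and CpG than the median promoter. GC content within 1 kb of the 5′ end had a median of 62.6% over the 63 members (range 38.4 to 75.7%) and 55.0% over all genes, and the median number of CpG was 148 against 90. Among members the medians were 61.1% GC and 135.5 CpG for those in all 5 libraries, 62.1% and 142 for those in 1 to 4, and 62.8% and 169 for those in none. Over all genes the class with no peak had the fewest CpG, a median of 48, against 101 in all 5. At a GC content of 65% or more there were 24 members (38.1%) and 2219 of the 20136 genes; 0 of them were in all 5 libraries, where 10.4% of such genes were, and 7 were in at least 1, where 47.2% of such genes were. Below 65% GC, 8 of 39 members (20.5%) were in all 5 libraries against 22.7% of such genes, and 43.6% against 48.3% in at least 1. The part of composition in peak detection was not tested.

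**Figure D4:**
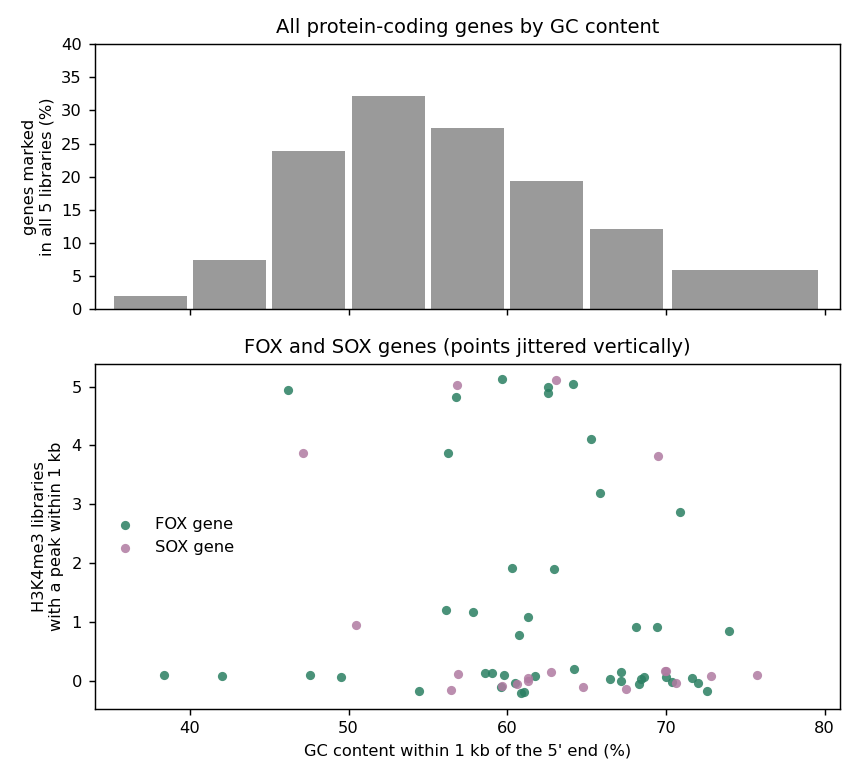
Upper panel, percent of all protein-coding genes marked in all 5 H3K4me3 libraries by GC content within 1 kb of the 5′ end (%); lower panel, number of libraries marking each FOX and SOX gene by the same GC content, with points jittered vertically. All 8 members marked in 5 libraries lie below 65% GC, while unmarked members run from 38.4 to 75.7%.

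Motif letters were counted on both strands from 250 bp upstream to 50 bp downstream. The forkhead core TGTTTAC was in 4 members (6.35%) against 2.81% of all genes, and the SOX core ACAATG in 4 (6.35%) against 8.92%. TATAAA was in 5 members (7.94%) against 10.9%, CCAAT in 26 (41.3%) against 35.8%, and the GC box GGGCGG in 47 (74.6%) against 52.2%. Of the 8 members in all 5 libraries, 0 held the forkhead or the SOX core, 1 TATAAA, 4 CCAAT and 7 the GC box. Among all genes in all 5 libraries, 2.01% held the forkhead core, 6.23% the SOX core, 5.74% TATAAA, 42.4% CCAAT and 64.2% the GC box. A match describes letters in the window and not a bound site.

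The comparison of the lines asked whether Bcl-xL overexpression went with other H3K4me3 at these promoters. Members with a peak within 1 kb numbered 17, 14 and 10 in control replicates 1, 2 and 3 (13.7 ± 3.51, SD, n = 3) and, in the HA-Bcl-xL libraries, 19 and 14 (16.5 ± 3.54, SD, n = 2). The difference of 2.83 genes was smaller than the pooled SD of 3.52, and it was -1 when each list was limited to its 10247 strongest peaks. It was 0.333 without HA-Bcl-xL replicate 2, 1 without control replicate 3 and 3 without control replicate 2. It was larger than that SD without control replicate 1 (4.5) and without HA-Bcl-xL replicate 3 (5.33). An exact rank test of 2 against 3 libraries cannot give a two-sided p below 0.2. No member was marked in HA-Bcl-xL replicates 2 and 3 but in no control, where 0.844% of all genes were, and none in the 3 controls alone, where 0.248% were. Within 2.5 kb the first count was 2, FOXK2 and FOXL1 (3.17%, against 0.824% of all genes), and the second 0 (0.248%). FOXK2, a forkhead factor of metabolism and autophagy control, had peaks 943 to 1122 bp and 1031 to 1155 bp downstream with 6 fragments each, and the 2 FOXL1 peaks lay 2366 bp apart at their nearest ends. Of the 8 members marked in a single library (12.7%, against 6.88% of all genes), 5 were marked in HA-Bcl-xL replicate 2. The share of all genes marked in that library alone was not computed. Without HA-Bcl-xL replicate 3 the 1 kb count was 5 (FOXJ2, FOXK2, FOXL1, FOXN2 and SOX4), where 2.53% of all genes were so marked. Without control replicate 3 the opposite count was 2 (FOXJ1 and FOXP1), where 0.844% of all genes were.

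Peak width gave no member that passed the test. Bases under peaks within 2.5 kb were compared by limma on their log2 values, each library centred on its median. The fit covered 5151 promoters with a peak in all 5 libraries. At an adjusted p under 0.05 limma called 0.0% of them, with 5.22% at an unadjusted p under 0.05, and among the 11 members tested it called 0 and 1 in the same order. That 1 was SOX30, wider in HA-Bcl-xL by a log2 value of 0.96 (SE 0.415, limma adjusted p = 0.931), with both HA-Bcl-xL libraries above all 3 controls. On the same scale SOX6 had the lowest value, -0.76 (SE 0.501), and SOX9 had -0.53 (SE 0.446). FOXL2 had 0.50, FOXA3 0.42, FOXN3 0.35, FOXJ3 0.29, FOXO3 0.15, FOXA1 -0.09, FOXD1 -0.13 and FOXM1 -0.13. The median over the 11 members was 0.15 against -0.02 over all 5151 promoters. The standard errors of 0.413 to 0.504 on the log2 scale limit what differences could be detected.

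**Figure D5:**
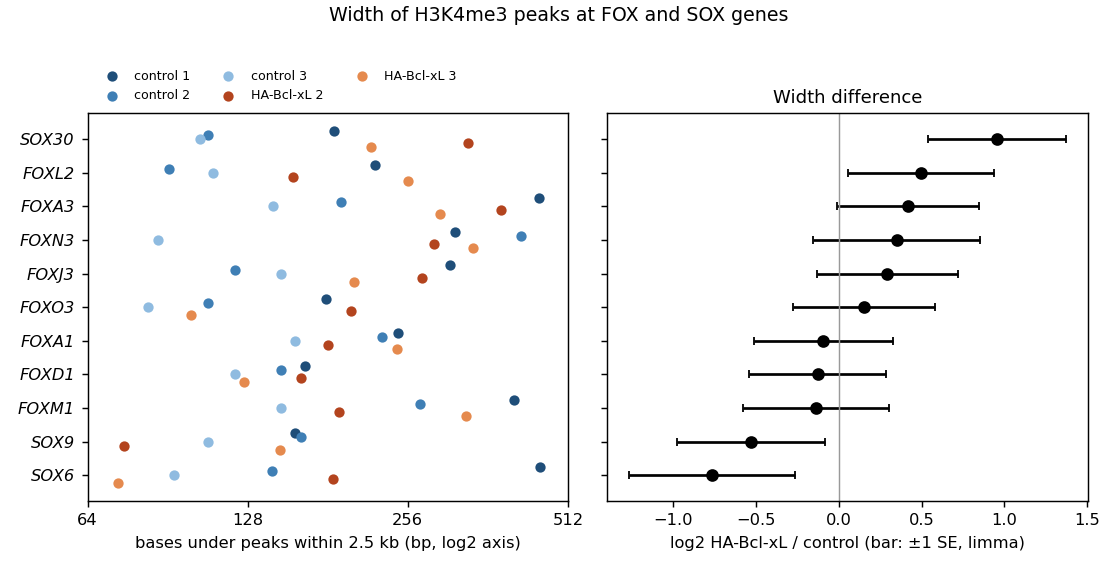
Left, bases under H3K4me3 peaks within 2.5 kb (bp, log2 axis) in each library at 11 FOX and SOX genes with a peak in all 5 libraries; right, log2 of HA-Bcl-xL over control with bars of ±1 SE from limma. SOX30 has both HA-Bcl-xL libraries above the 3 controls, and no gene passed an adjusted p of 0.05.

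Genes of related function were counted from lists by name. Among 18 neuroendocrine and islet transcription factors 4 were in all 5 libraries (HNF4A, NEUROD1 and RFX6 among them) and 7 in at least 1, with PDX1 in 4 libraries and MAFA in 1. Among 39 HOX cluster genes, which also pattern embryos, 4 were in all 5 (HOXB3, HOXB6 and HOXB13 among them) and 20 in at least 1. Among 14 partners of SOX and FOX factors SIN3A was in all 5 and SMAD2 in 2, and the others had no peak within 1 kb. For the 63 FOX and SOX genes the corresponding counts were 8 and 24, and over all genes the shares were 21.3% in all 5 libraries and 48.2% in at least 1.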

How the data were processed

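CUT&RUN with an H3K4me3 or a rabbit anti-mouse IgG antibody was deposited as 1 narrowPeak list per library, 11 of 12 samples being analysed here. Per the submitters' processing notes, bcl2fastq 2.20, Trimmomatic 0.36, Bowtie2 2.2.9, MACS2 2.1.1 and deepTools 3.5.1 were used with hg19 (GRCh37). Their parameters, the peak caller's control and the treatment of duplicate reads are not given in the sources used here. Each deposited peak has the authors' score, a fold enrichment (ratio) over background, and -log10 p and -log10 q values, and these served only to rank or filter peaks within a list and to solve fragments. The lowest deposited -log10 q was 2.001.

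Peaks on the autosomes, X and Y were compared with the most 5′ end of each protein-coding gene of GENCODE release 44 lifted to GRCh37, within 1 kb and 2.5 kb, with at least 1 bp overlap (coordinates 1-based). The fragment number at a summit was solved from fold and -log10 p, to within 0.001 for all 128 member peaks within 2.5 kb, by a method tested on simulated peaks. PCR copies may be among the fragments. Widths were compared with limma 3.58.1 (R 4.3.3) with Benjamini-Hochberg adjustment on 3 control and 2 HA-Bcl-xL libraries, tested on simulated data. There 5% of 200 promoters changed by a log2 value of 1 were recovered, and 86.5% of those changed by 2. Python 3.11.15, numpy 2.4.6, pandas 2.3.3 and pysam 0.24.0 did the rest. Motifs and sequences were read from GRCh37.

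Members were named, apart from items not reported here, with full values for those marked in all 5 libraries, in all libraries of 1 line only, or differently in the 2 windows; others named with values were chosen after their values were seen. The members, lists and tests were chosen with earlier results of these data known. Alternatives were a stricter q, a minimum overlap, equal list lengths, other windows and ends, removal of peaks overlapping IgG peaks, no centring, a fit with replicates as a block, and each library left out in turn.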

Additional observations from a re-analysis of the deposited data

How the results depend on the processing

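Of the values recomputed under alternatives with all libraries kept, 40 stayed within the spread or within 1.5 times the reported count and 5 did not. With a -log10 q of at least 5, 3 members had a peak in all 5 libraries (FOXA3, FOXD1 and SOX30) in place of 8, against 15.3% of all genes, and 20 had one in at least 1, against 42.4%. At equal list lengths 6 had one in all 5, FOXA1 and SOX9 being lost, against 17.9% of all genes, 19 had one in at least 1, against 42.6%, and the difference between lines (HA-Bcl-xL minus control) was -1. The count in both HA-Bcl-xL and no control library was 2 with the 2.5 kb window, against 0.824% of all genes. It was 1 with any transcript (FOXL1), a setting for which the share of all genes was not computed. With a replicate block, limma called 2 of all 5151 promoters by width and 0 members, the lowest adjusted p of a member being 0.777. The numbers were not known to pair the libraries. The correlation of width deviations was 0.0045 for replicate 2 and 0.0297 for replicate 3, the only numbers both lines shared. With 2 HA-Bcl-xL libraries the deviations from their mean mirror each other, so these values are not separate checks of the pairing. Without centring, 60.0% of all promoters had a higher width in HA-Bcl-xL, against 48.5% with it, and 7 against 6 members of 11. Removing the 499 H3K4me3 peaks that overlapped an IgG peak changed no member count. It could not, because no IgG peak lay within 2.5 kb of a member's 5′ end. The unchanged values of that setting are among the 40. Leaving out 1 library at a time, members in all libraries ranged from 8 to 10, those in at least 1 from 19 to 24, the difference between lines from 0.333 to 5.33, those in HA-Bcl-xL only from 0 to 5, those in control only from 0 to 2, IgG from 0 to 0, member widths called from 0 to 0 and all promoters called from 0 to 3 (2 without HA-Bcl-xL replicate 2, 3 without HA-Bcl-xL replicate 3, where the lone library is assumed to vary like the controls). Beyond that, the cause of these moves was not tested. Peaks of 5 to 12 fragments at the summit limit what an absent call means.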

Other observations

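Values at internal starts were examined after the peaks had been seen. SOX6 had an annotated 5′ end 133600 bp downstream of its most 5′ end, and peaks lay within 1 kb of it in all 5 libraries, while the most 5′ end was marked in 4. SOX5, which had no peak within 2.5 kb of its most 5′ end, had peaks within 1 kb of 5′ ends 611624 to 612952 bp downstream in 4 libraries: control replicates 1 and 3 and both HA-Bcl-xL libraries. At SOX30 the most 5′ end belonged to 1 transcript, and the other annotated 5′ ends were 19042 and 19116 bp further downstream, away from the peaks that all 5 libraries shared.

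SOX2 combined many fragments with a weak call. Its 4 peaks, 3 in control replicate 1 and 1 in HA-Bcl-xL replicate 2, held 15, 13, 15 and 15 fragments at the summit over solved local backgrounds of 2.69, 2.71, 2.71 and 2.27, and ranked at percentiles 18.1, 4.0, 17.7 and 33.4 of their lists. The SOX4 peak had 12 fragments over a background of 1.95. FOXD3 in contrast was called from 5 to 7 fragments over backgrounds of 0.105 to 0.236, and the median background of the 94 member peaks within 1 kb was 0.834. What sets the local background at these loci was not tested.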
